A study of Homo sapiens with 6 samples.

Results

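The 33 genes described here encode enzymes of cholesterol synthesis, the proteins that sense, take up and move sterols, and the enzymes of fatty acid synthesis and desaturation. They were taken by gene symbol from the 55765 genes of a deposited count table, and all 33 symbols were found. By role, 7 genes belong to the mevalonate arm that leads to farnesyl diphosphate, 11 to the sterol arm that leads from there to cholesterol, 5 to sterol sensing, 4 to sterol uptake and transport, and 6 to fatty acid synthesis.

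The samples are OCI-AML2 cells, a human line grown from a patient's acute myeloid leukaemia. One group of 3 libraries came from cells given 100 nM MRT199665, which the labels call a MARK inhibitor, for 48 h, and the other 3 libraries came from cells given vehicle. Cells of both groups had been grown as clones from single cells in medium with fetal bovine serum, which carries lipoprotein cholesterol, so all values come from 1 cell line fed with serum. Sequencing read the 3′ end of each messenger RNA. Separate cultures are not stated in the labels for libraries of 1 group, so the spread behind each p-value may be technical.

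Cells make cholesterol from acetyl-CoA through mevalonate and squalene, and they also import it in lipoproteins. When sterols in the endoplasmic reticulum are scarce, SCAP escorts the SREBP transcription factors to the Golgi, where they are cleaved and released to switch on sterol and fatty acid genes. When sterols are abundant, the INSIG proteins hold SCAP back, so the messenger RNAs of the pathway are widely used as a readout of sterol supply.

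The libraries held between 5871097 and 14308650 counts. Where no read was counted, up to 3 counts remain possible, or 0.213 to 0.507 CPM depending on the library, a bound on counting error alone. CPM here are counts relative to each library's total after TMM scaling. MRT199665 replicate 2, the library with the fewest counts, and vehicle replicate 2 stood at opposite ends of the first principal component (48.4 and -36.8), a component with 46.8% of the variance along which the groups overlapped. On the second component (26.3%) they did not, with MRT199665 libraries between -26.4 and -5.94 and vehicle libraries between 0.954 and 35.3. Of 7 myeloid marker genes all had counts, and mean levels with MRT199665 lay between 3.60 CPM (LYZ) and 524 CPM (AZU1). Among markers of other cell types, MS4A1 (B cells) had 0 counts in every library, and CD3E (T cells) and EPCAM (epithelial cells) each had 0 counts over the MRT199665 libraries and 1 over the vehicle libraries. Of the 7 myeloid markers, 4 (MPO, LYZ, CSF3R and CD33) lay wholly higher with MRT199665, against 11.4% of all tested genes. None of the 7 was called (lowest adjusted p = 0.105, edgeR). The myeloid markers summed to between 1232 and 1386 CPM with MRT199665 and between 988 and 1262 CPM with vehicle. The part of these differences in the results was not tested. In bulk RNA, fewer cells that express a gene and less RNA per cell cannot be told apart.

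With MRT199665 most transcripts of cholesterol and fatty acid synthesis had slightly lower means than with vehicle, but no single gene passed the test. The clearest differences were in the sterol arm, where FDFT1 averaged 192 ± 9.17 CPM in MRT199665 libraries and 259.5 ± 11.8 CPM in vehicle libraries (SD, n = 3 each). MSMO1 averaged 46.2 ± 5.07 CPM in MRT199665 libraries and 73.1 ± 14.1 CPM in vehicle libraries (SD, n = 3 each). Of the 33 genes, 32 passed the filter on low counts. None of the 32 was called higher, against 0.85% of the 13053 genes tested, and none was called lower, against 0.398% (edgeR quasi-likelihood test, Benjamini-Hochberg adjusted p under 0.05). At an unadjusted p under 0.05, 7 of the 32 were lower (21.9%, against 7.11% of all tested genes) and 0 were higher, against 7.64%. DESeq2 called 2 of them lower, FDFT1 and MSMO1, against 1.25% of its genes, and limma-voom called 0, against 0.383%.

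The log2 fold change, MRT199665 over vehicle, was negative for 27 of the 32 tested members (84.4%, against 49.1% of all tested genes), with a median of -0.19. The median over all tested genes was 0.0059, and their quartiles were -0.19 and 0.21. All 3 MRT199665 libraries lay below all 3 vehicle libraries for 9 of the 32 (28.1%, against 10.8% of all tested genes), and above them for 1, NPC2 (3.12%, against 11.4%). The count of 7 lower at an unadjusted p under 0.05 was 6 without MRT199665 replicate 2, against 6.27% of all tested genes, and 4 without vehicle replicate 3, against 4.53%. With DESeq2 it was 4, against 2.81% of 28228 genes. That is a wider set without the low-count filter, so this share is not comparable with the others. Without vehicle replicate 1, 1 member, PMVK, was higher at that threshold, against 8.74%. With MRT199665 replicate 2 and vehicle replicate 2 both left out, the count lower was 11 of 32, against 7.74%, and the median log2 fold change was -0.26.

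By role, the median log2 fold change was -0.20 for the 17 tested enzymes of both arms of cholesterol synthesis, -0.086 for the 9 genes of sensing and uptake, and -0.16 for the 6 fatty acid genes. Negative values were found for 13 of 17, 8 of 9 and 6 of 6 of these genes. Taken apart, the median was -0.26 for the mevalonate arm and -0.20 for the sterol arm. With a stricter low-count filter, which removed ACAT2, these medians were -0.17 and -0.21. With the main filter the median was -0.086 for sensing and -0.25 for uptake and transport. Whether the roles differ from one another was not tested. The 95% interval of the log2 fold change lay wholly below 0 for 7 of the 32 and contained 0 for the other 25.

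**Figure D1:**
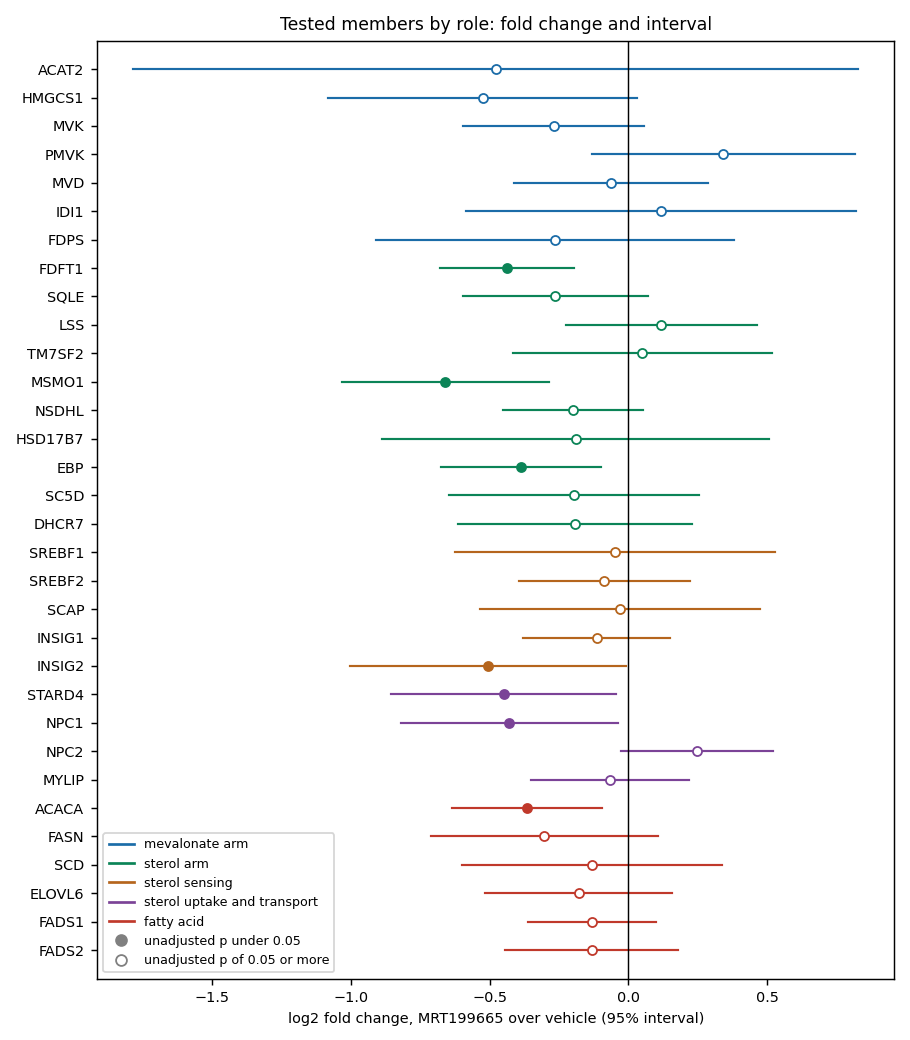
The log2 fold change of each of the 32 tested genes, MRT199665 over vehicle, with its 95% interval from the edgeR fit; colours give the role and filled points an unadjusted p under 0.05. 27 points lie left of 0, and the 7 filled points are FDFT1, MSMO1, EBP, INSIG2, STARD4, NPC1 and ACACA.

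In the mevalonate arm no gene had an unadjusted p under 0.05. HMGCS1, the synthase that condenses acetyl-CoA and acetoacetyl-CoA at the head of the arm, had 11.9, 10.8 and 9.64 CPM with MRT199665, against 21.1, 10.6 and 14.8 CPM with vehicle. Its highest value was in vehicle replicate 1 and the groups overlapped, since vehicle replicate 2 lay below 2 of the treated libraries. For HMGCS1 the log2 fold change was -0.53 ± 0.24 (SE, adjusted p = 0.368). It was -0.23 without vehicle replicate 1 and -0.75 without vehicle replicate 2. MVK, mevalonate kinase, had 82.5, 57.1 and 70.9 CPM with MRT199665 and 81.4, 84.2 and 88.9 CPM with vehicle. Only MRT199665 replicate 1 reached the vehicle range of MVK, and the log2 fold change was -0.27 ± 0.14 (SE, adjusted p = 0.436), which was -0.15 without MRT199665 replicate 2.

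MVD, the decarboxylase that forms isopentenyl diphosphate, was at 52.9, 68.3 and 60.3 CPM with MRT199665, against 52.2, 64.9 and 72.1 CPM with vehicle. The groups of MVD overlapped, and its log2 fold change of -0.062 ± 0.15 (SE) turned positive without MRT199665 replicate 1 (0.024) or vehicle replicate 3 (0.043). Both positive members of the arm were highest in MRT199665 replicate 2. PMVK, phosphomevalonate kinase, stood there at 38.9 CPM, and its log2 fold change was 0.34 ± 0.21 (SE). Without that library it was 0.15, and without vehicle replicate 1 it was 0.52. IDI1, which isomerises isopentenyl diphosphate, stood at 25.5 CPM in that library, against 10.9 to 15.6 CPM in the other 5, and its log2 fold change of 0.12 turned to -0.35 without it. ACAT2, the cytosolic thiolase that makes acetoacetyl-CoA, was near the detection limit, with 22 counts over the MRT199665 libraries and 32 over the vehicle libraries. FDPS, farnesyl diphosphate synthase, averaged 3.31 ± 0.978 CPM in MRT199665 libraries and 3.86 ± 0.900 CPM in vehicle libraries (SD, n = 3 each).

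The assignment of reads limits 3 of these 7 genes. In GENCODE release 29 on GRCh38, a later build than that of the table, the last 500 exonic bases of ACAT2 lie to 79.4% under exons of TCP1 on the opposite strand. For FDPS that share was 68.9% (over 557 bases), under RUSC1-AS1, and for HMGCS1 66.2%, under AC114947.2. At least 50% was covered in these 3 of 33 members (9.09%) and in 6.57% of 19627 protein-coding genes. Without the strand setting, reads from such a gene and its partner cannot be told apart, and the part of this overlap in the low counts was not tested. FDPS also has processed copies, of which FDPSP7 had 29 counts over all 6 libraries.

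Of the sterol arm's 11 genes, 10 were tested and 8 had a negative log2 fold change, against 49.1% of all tested genes. For 4 of them every MRT199665 library lay below every vehicle library, against 10.8%. FDFT1, squalene synthase and the first enzyme committed to sterols, had 182, 192 and 200.4 CPM with MRT199665 and 273, 249.8 and 256 CPM with vehicle. The groups did not overlap, and each group spanned less than the gap between them. FDFT1 had the lowest p of all 32 members (log2 fold change -0.44 ± 0.11, SE, edgeR adjusted p = 0.103). DESeq2 called it lower (adjusted p = 0.0228). Over the 15 alternatives its adjusted p lay between 0.0228 and 0.492.

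MSMO1, the oxidase that removes methyl groups from early sterols, had 52.0, 42.9 and 43.6 CPM with MRT199665, against 57.1, 83.7 and 78.5 CPM with vehicle. Its groups did not overlap, but vehicle replicate 1 lay close to MRT199665 replicate 1. For MSMO1 the log2 fold change was -0.66 ± 0.16 (SE, adjusted p = 0.107), and this was the most negative value of all members. Without vehicle replicate 1 it was -0.81 and was called (adjusted p = 0.0292), the single member lower at the threshold there, against 0.409% of all genes tested. It was also called by DESeq2 (adjusted p = 0.0241) and without a low-count filter (0.00224, against 0.96% of the 28230 genes of that run called lower). Over the 15 alternatives the adjusted p of MSMO1 lay between 0.00224 and 0.473.

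EBP, the isomerase that shifts the double bond of the sterol ring, had 147, 141 and 138 CPM with MRT199665 and 211, 160.0 and 186 CPM with vehicle. The treated libraries lay close together and below all vehicle libraries, which spread more widely. The fitted difference of EBP was -0.39 ± 0.13 on the log2 scale (SE, adjusted p = 0.201). NSDHL, a dehydrogenase that acts with MSMO1, also had no overlap, at 66.6 to 79.5 CPM with MRT199665 and 81.0 to 86.3 CPM with vehicle, but its interval contained 0. SQLE, the epoxidase that controls flux into sterols, had 159, 119 and 146 CPM with MRT199665, against 146, 179.7 and 184 CPM with vehicle. The groups of SQLE overlapped through vehicle replicate 1, and the log2 fold change was -0.26 ± 0.15 (SE, adjusted p = 0.455), or -0.16 without MRT199665 replicate 2.

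DHCR7, a terminal reductase, SC5D, a sterol desaturase, and HSD17B7, a ketoreductase, had log2 fold changes between -0.20 and -0.19 with overlapping groups. When each library was left out in turn, DHCR7 ranged from -0.37 (without MRT199665 replicate 2) to -0.084 (without vehicle replicate 3). SC5D ranged from -0.33 to -0.070 without the same libraries, and HSD17B7 from -0.44 (without vehicle replicate 1) to 0.092 (without vehicle replicate 2). With both replicate 2 libraries left out, DHCR7 was at -0.50 (adjusted p = 0.161, edgeR). LSS, which closes the sterol rings, and TM7SF2, a sterol reductase, were at 0.12 and 0.050, also with overlapping groups. Reads of HSD17B7 could be shared with close copies, of which HSD17B7P2 had 7 counts in all. CYP51A1, the sterol demethylase, was not tested, since it had 2 counts over the MRT199665 libraries and 1 over the vehicle libraries. At that depth no difference was detectable.

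Summed over the 11 genes, the sterol arm reached 680, 638 and 661 CPM with MRT199665, against 836, 823 and 868 CPM with vehicle. These sums did not overlap, and FDFT1, SQLE and EBP supplied between 70.8% and 75.4% of them. The remaining 8 genes summed to between 176 and 193 CPM with MRT199665 and between 206 and 242 CPM with vehicle. Taking MSMO1 out as well left between 133 and 143 CPM with MRT199665 and between 149 and 163 CPM with vehicle. The sums of the mevalonate arm overlapped, at 184 to 206 CPM with MRT199665 and 197 to 219.7 CPM with vehicle.

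**Figure D2:**
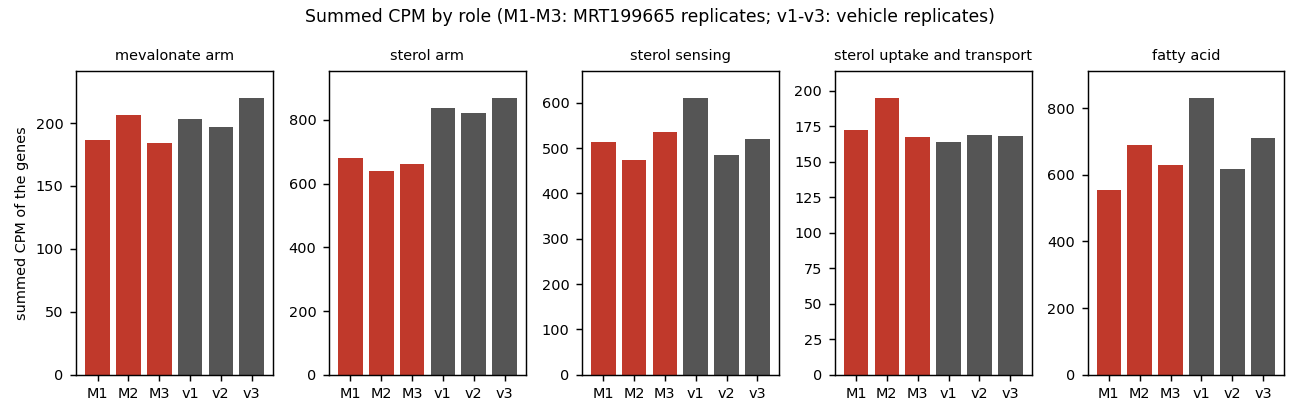
Summed CPM of the genes of each role in each library, with the 3 MRT199665 libraries (M1 to M3) left of the 3 vehicle libraries (v1 to v3); each panel has its own axis from 0. The sterol arm reaches 638 to 680 CPM with MRT199665 and 823 to 868 CPM with vehicle, while the sums of the other roles overlap.

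The upstream sequences of these genes are shown because SREBP binds upstream of many of them, and the motifs in them were not used to choose the genes. SREBP acts on promoters together with NF-Y, which binds the letters CCAAT. The 250 bases before the first start site that RefSeq lists (GRCh38.p14) were available for 29 of the 33 genes. No window was used for ACAT2, FDFT1, SQLE and FASN. The windows were searched on both strands. Below, capitals mark CCAAT or its reverse ATTGG and, in SREBF2, the sterol regulatory element TCACNCCAC. The windows are chr4:165327419-165327668 on the plus strand for MSMO1, chrX:48521558-48521807 on the plus strand for EBP, chr5:111512536-111512785 on the minus strand for STARD4, chr5:43313413-43313662 on the minus strand for HMGCS1 and chr22:41832855-41833104 on the plus strand for SREBF2.
MSMO1: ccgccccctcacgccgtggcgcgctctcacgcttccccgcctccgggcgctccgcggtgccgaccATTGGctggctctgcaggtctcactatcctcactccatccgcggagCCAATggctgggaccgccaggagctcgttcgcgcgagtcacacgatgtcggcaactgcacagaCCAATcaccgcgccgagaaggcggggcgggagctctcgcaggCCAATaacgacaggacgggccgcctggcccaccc
EBP: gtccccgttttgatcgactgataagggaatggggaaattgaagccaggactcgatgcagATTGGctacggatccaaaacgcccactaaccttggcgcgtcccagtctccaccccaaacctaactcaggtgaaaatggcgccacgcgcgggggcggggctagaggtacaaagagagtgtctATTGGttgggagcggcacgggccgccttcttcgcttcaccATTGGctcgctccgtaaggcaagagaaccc
STARD4: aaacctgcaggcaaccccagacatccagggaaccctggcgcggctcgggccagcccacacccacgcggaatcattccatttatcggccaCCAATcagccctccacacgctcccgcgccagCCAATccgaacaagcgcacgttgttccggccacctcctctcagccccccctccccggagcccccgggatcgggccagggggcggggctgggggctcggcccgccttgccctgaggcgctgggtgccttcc
HMGCS1: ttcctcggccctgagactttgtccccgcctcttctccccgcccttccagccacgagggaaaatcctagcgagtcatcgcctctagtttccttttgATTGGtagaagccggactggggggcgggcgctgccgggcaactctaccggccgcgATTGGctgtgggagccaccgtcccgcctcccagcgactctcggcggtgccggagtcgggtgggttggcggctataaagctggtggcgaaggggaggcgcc
SREBF2: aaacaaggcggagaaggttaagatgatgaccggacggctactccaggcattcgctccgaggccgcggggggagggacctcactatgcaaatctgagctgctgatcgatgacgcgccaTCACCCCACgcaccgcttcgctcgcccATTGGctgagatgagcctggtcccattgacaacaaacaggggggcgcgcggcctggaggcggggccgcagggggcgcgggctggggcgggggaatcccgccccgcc

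MSMO1 held 4 CCAAT boxes, EBP 3, and STARD4 and HMGCS1 2 each. A box was found in 18 of the 29 genes (62.1%), against 33.0% of 27305 promoters of that length and 35.3% of the 8504 whose gene was tested here. None of the boxes in the members overlapped another of the motifs searched. The exact letters TCACNCCAC of the sterol regulatory element were matched in 1 of 29, SREBF2, against 0.875% of all promoters. In SREBF2 they begin 133 bases before the start site (position -133). Elements with other letters or outside the window were not searched. The GC box GGGCGG was found in 27 of 29 (93.1%, against 42.3% of all promoters and 67.3% of those of tested genes) and the E-box CACGTG in 3 of 29 (10.3%, against 6.49% and 9.24%). The median log2 fold change was -0.19 for the 18 tested genes with a CCAAT box and -0.13 for the 10 without one. These matches are descriptions of the letters in 1 window, not measured binding.

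Transcripts of the 5 sterol sensing genes had log2 fold changes between -0.51 and -0.031, and none was called. SREBF2, which encodes the SREBP of cholesterol genes, had 248, 214 and 242 CPM with MRT199665 and 291, 226 and 230.1 CPM with vehicle. The groups overlapped, and the log2 fold change of -0.086 ± 0.14 (SE, adjusted p = 0.832) turned to 0.040 without vehicle replicate 1. SREBF1, which encodes the SREBP forms tied more closely to fatty acid genes, had 7.32, 11.0 and 9.57 CPM with MRT199665, against 12.8, 8.75 and 6.82 CPM with vehicle. Its highest and lowest values were both in vehicle libraries, and the log2 fold change was -0.047 ± 0.25 (SE). Without MRT199665 replicate 1 that value was 0.10, and without vehicle replicate 1 it was 0.23. SCAP, the escort protein, had 117, 82.8 and 145 CPM with MRT199665 and 146, 94.6 and 112 CPM with vehicle. The groups of SCAP overlapped and its log2 fold change of -0.031 ± 0.22 (SE) changed sign without MRT199665 replicate 2 (0.15), without vehicle replicate 1 (0.16) and without both ends of the first component (0.015).

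INSIG1, a sterol-dependent anchor of SCAP and itself a target of SREBP, had 138, 163 and 137 CPM with MRT199665, against 155, 151 and 168 CPM with vehicle. MRT199665 replicate 2 lay within the vehicle range, and the log2 fold change was -0.11 ± 0.12 (SE, 95% interval -0.38 to 0.15). INSIG2, the second anchor of SCAP, had 2.94, 3.55 and 2.55 CPM with MRT199665 and 4.19, 3.95 and 4.48 CPM with vehicle. Its groups did not overlap (log2 fold change -0.51 ± 0.22, SE, adjusted p = 0.331).

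Among uptake and transport genes, 2 of 4 lay wholly lower with MRT199665, against 10.8% of all tested genes, and 1 wholly higher, against 11.4%. STARD4, a carrier of cholesterol between membranes, had 7.25, 9.63 and 6.80 CPM with MRT199665, against 9.73, 10.9 and 11.2 CPM with vehicle. The groups were separate by a narrow margin, between MRT199665 replicate 2 and vehicle replicate 1, and the log2 fold change was -0.45 ± 0.18 (SE, adjusted p = 0.287). NPC1, which exports cholesterol from the lysosome, had 7.93, 5.75 and 8.15 CPM with MRT199665 and 9.90, 10.2 and 9.77 CPM with vehicle. The vehicle libraries of NPC1 lay close together and above all treated ones (log2 fold change -0.43 ± 0.17, SE, adjusted p = 0.297). The annotated end of NPC1 lies to 36.6% under RMC1 on the opposite strand.

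NPC2 hands cholesterol to NPC1 inside the lysosome, and its values ran the other way, at 108, 136 and 112 CPM with MRT199665, against 102, 100.4 and 97.9 CPM with vehicle. The groups did not overlap, the highest library was MRT199665 replicate 2, and the log2 fold change was 0.25 ± 0.12 (SE, adjusted p = 0.392). Without that library it was 0.14. MYLIP, a ubiquitin ligase induced by oxysterols that limits lipoprotein uptake, had 49.004, 43.1 and 40.7 CPM with MRT199665 and 42.4, 47.4 and 49.3 CPM with vehicle. Its ranges nearly coincided (log2 fold change -0.066 ± 0.13, SE, adjusted p = 0.868).

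**Figure D3:**
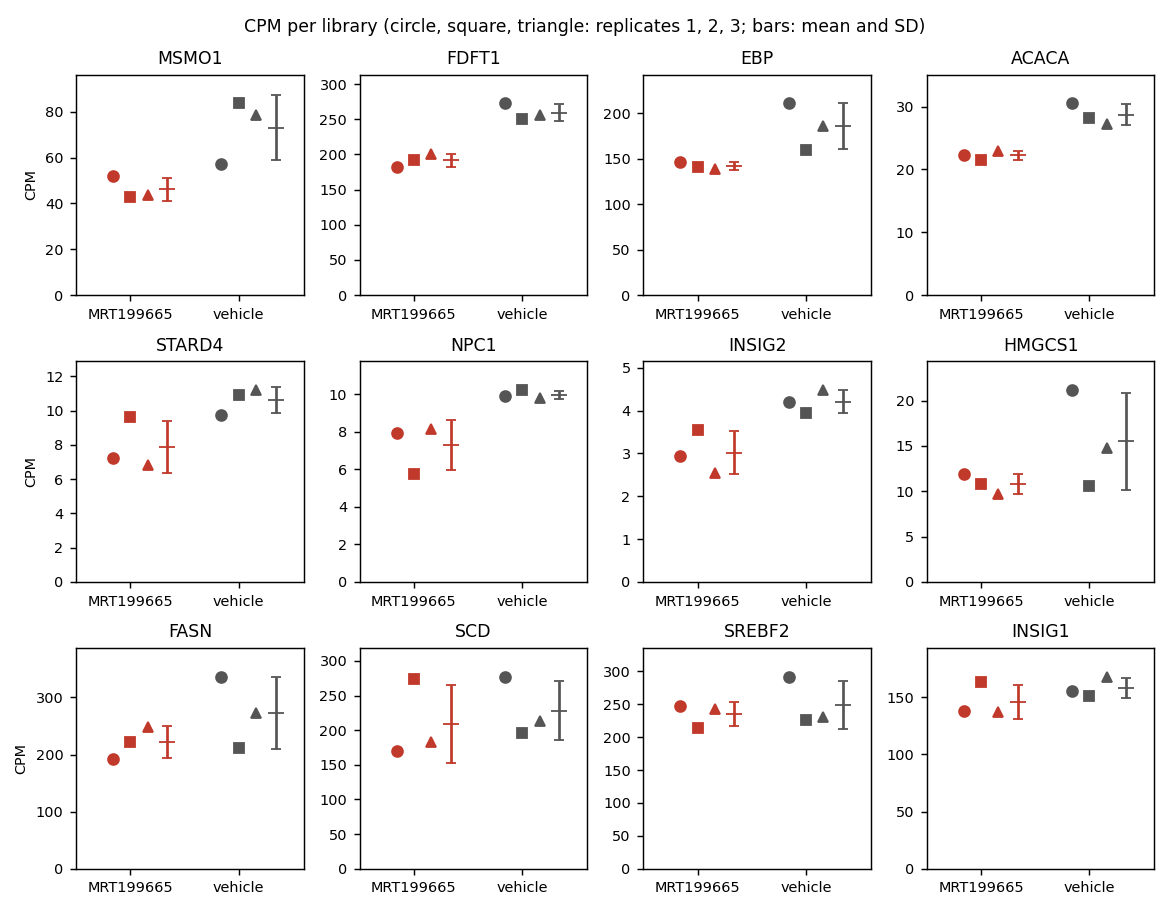
CPM of 12 genes in each library, with MRT199665 in red left of vehicle in grey, marker shapes for replicates 1 to 3, and the mean and SD beside the points; each axis starts at 0. FDFT1, MSMO1, EBP, ACACA, STARD4, NPC1 and INSIG2 show no overlap between groups, while HMGCS1, FASN, SCD, SREBF2 and INSIG1 do.

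All 6 fatty acid genes had negative log2 fold changes, between -0.37 and -0.13, and none was called. ACACA, the carboxylase that makes malonyl-CoA, had 22.3, 21.5 and 22.9 CPM with MRT199665, against 30.5, 28.2 and 27.3 CPM with vehicle. Both groups were tight and did not overlap, and the log2 fold change of ACACA was -0.37 ± 0.12 (SE, adjusted p = 0.199). FASN, the synthase that builds palmitate, had 193, 222 and 249 CPM with MRT199665 and 336, 211 and 272 CPM with vehicle. Vehicle replicate 1 was the highest library, vehicle replicate 2 lay inside the treated range, and the log2 fold change was -0.30 ± 0.18 (SE, adjusted p = 0.492). Without vehicle replicate 1 the log2 fold change of FASN was -0.13, and without vehicle replicate 2 it was -0.47.

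SCD, the desaturase that makes monounsaturated fatty acids, had 170.0, 274 and 182 CPM with MRT199665, against 277, 195 and 213 CPM with vehicle. Its highest values came from 1 library of each group, MRT199665 replicate 2 and vehicle replicate 1, so the groups overlapped. SCD had a log2 fold change of -0.13 ± 0.21 (SE), which was -0.37 without MRT199665 replicate 2 and 0.029 without vehicle replicate 1. FADS1, a desaturase of polyunsaturated fatty acids, lay between 106 and 109 CPM with MRT199665 and between 113 and 124 CPM with vehicle, without overlap, but its interval contained 0. Groups overlapped for FADS2, the other desaturase of that pathway, and for ELOVL6, an elongase, whose log2 fold changes were -0.13 and -0.18.

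Differences among libraries of 1 group were often as large as those between groups. For 27 of the 32 genes the ratio of the highest to the lowest library, in at least 1 group, exceeded the fold change between groups. The larger range of the groups easily exceeds a small fold change, and the share over all tested genes was not counted. Vehicle libraries held the highest value for 28 of 32 genes, of which 14 were highest in vehicle replicate 3 and 10 in vehicle replicate 1. Vehicle replicate 2 was highest for 4. Among all tested genes, vehicle replicate 3 was highest for 10.3%, vehicle replicate 1 for 17.5% and vehicle replicate 2 for 21.7%. MRT199665 replicate 2 was highest for 4 members (12.5%, against 24.8% of all tested genes) and lowest for 10. The share of all tested genes lowest in that library was not counted. The vehicle libraries also differed in which genes were high. Vehicle replicate 1 held the highest value of FASN, SCD, SREBF1, SREBF2, SCAP, HMGCS1, FDFT1, EBP, ACACA and FADS2. Among the vehicle libraries it held the lowest value of other genes, such as MSMO1, SQLE, MVD, HSD17B7 and ELOVL6.

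**Figure D4:**
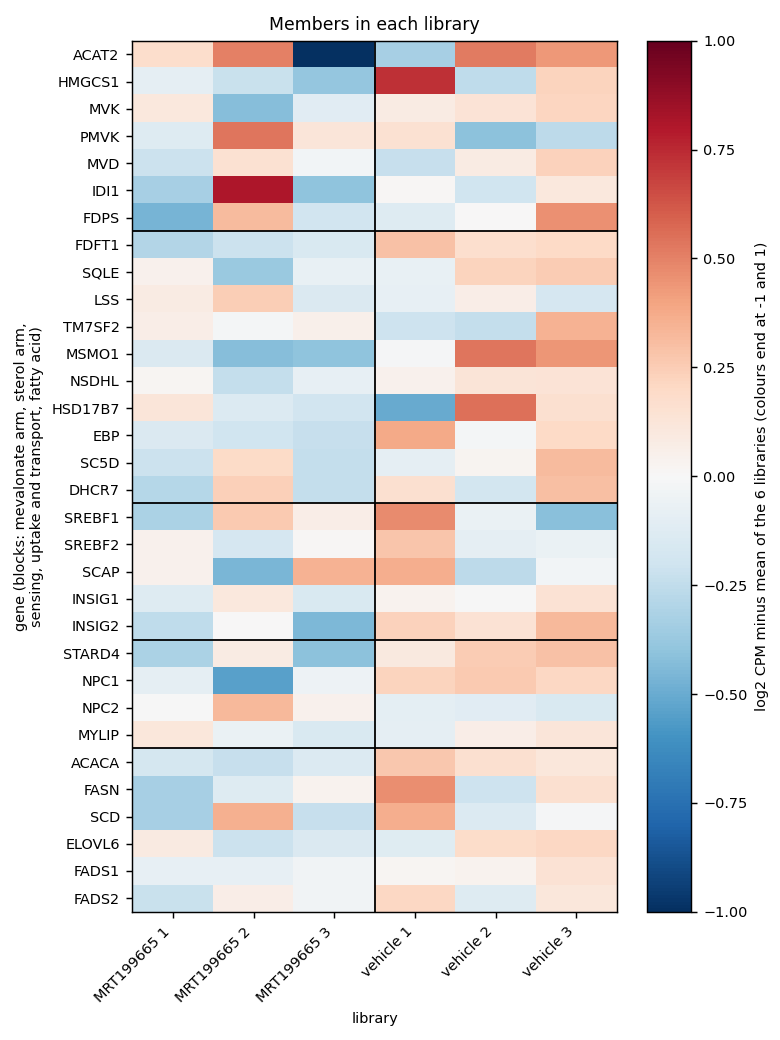
Log2 CPM of the 32 tested genes in each library, centred on the mean of the 6 libraries, with MRT199665 left of vehicle and lines between roles; red is above and blue below the mean. Vehicle columns hold the highest value of 28 genes, and MRT199665 replicate 2 that of 4 (PMVK, IDI1, LSS and NPC2).

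Neighbouring genes of the pathway showed no call in either direction. Of 17 genes of acetyl-CoA supply and fatty acid handling, all tested, 10 had negative log2 fold changes, against 49.1% of all tested genes. At an unadjusted p under 0.05, 3 of the 17 were lower, against 7.11%. The lowest p belonged to ACSS2, which makes acetyl-CoA from acetate, at 12.8 ± 1.51 CPM in MRT199665 libraries and 19.9 ± 1.94 CPM in vehicle libraries (SD, n = 3 each, adjusted p = 0.0996). It was followed by HSD17B12, a reductase of fatty acid elongation (log2 fold change -0.51 ± 0.15, SE, adjusted p = 0.165). Of 8 genes of sterol efflux and esterification, 7 were tested and 5 were positive, with a median of 0.040. SMPDL3A and the exporter gene ABCA1 had the lowest p, with log2 fold changes of 0.56 ± 0.29 and 0.30 ± 0.30 (SE). The 7 genes of SREBP processing and sterol-regulated degradation had a median of -0.11, and the lowest p among them were those of MBTPS2, a protease that cleaves SREBP, at -0.27 ± 0.14 (SE), and RNF145, at -0.17 ± 0.11 (SE). The 10 genes of isoprenoid branches and further sterol enzymes had a median of 0.072, and those with the lowest p were PDSS1, at -0.45 ± 0.24 (SE), and LBR, a sterol reductase of the nuclear membrane, at 0.37 ± 0.28 (SE). In these last 3 lists no gene had an unadjusted p under 0.05.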

How the data were processed

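The values were whole-number counts per gene symbol, deposited without normalization, as tested on the table. Per the submitters' processing notes, the authors used the hg19 build with STAR 2.4, HTSeq 0.6.1 and DESeq2. The annotation and the strand setting are not given in the sources used here. Groups and replicate numbers came from the labels. Within groups, counts of each pair of libraries differed by more than sampling noise (chi-square per degree of freedom 9.53 or more), so none was merged.

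The test over the whole table was edgeR's two-sided quasi-likelihood test (version 4.0.16, R 4.3.3) with TMM scaling and group as the only term. Low genes were removed by filterByExpr (minimum count 10, minimum total 15). The SE was the size of the log2 fold change divided by the square root of F. Members and lists were chosen with earlier results of these data known, so no list was tested. The rule for printing library values took members with an unadjusted p under 0.05, the 2 with the highest CPM in each role, and 10 listed regulators and enzymes, which overlap with these, in all 18 genes. SQLE was added after its values were seen. Alternatives were other scalings, other low-count filters, DESeq2 1.42.0, limma-voom (limma 3.58.1), the replicate number as a block, and leaving out libraries. The scripts were tested on simulated data. Promoters came from RefSeq, matched by symbol. Some markers of other cell types are not reported here.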

Additional observations from a re-analysis of the deposited data

How the results depend on the processing

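No member was called higher under any alternative run, and the count called lower was 1 without a low-count filter, 2 with DESeq2 and between 0 and 1 when each library was left out in turn. Over all tested genes, 111 were called higher and 52 lower. These counts were 373 and 271 without a low-count filter, 201 and 154 with DESeq2, and 29 to 78 and 20 to 55 when each library was left out; the cause was not tested. Deviations of same-numbered libraries from their group means correlated at -0.55, -0.47 and 0.018 over 13053 genes. Differently numbered libraries correlated at between -0.10 and 0.53. With 3 libraries in each group, such deviations depend on one another and cannot decide whether same-numbered libraries were handled together. With the replicate number as a block, 7 genes were called higher and 5 lower, and no member, while 3 members were lower at an unadjusted p under 0.05, against 3.82% of all tested genes. Role medians (log2) stayed negative under every alternative run, except that of sterol sensing without vehicle replicate 1 (0.040). With MRT199665 replicate 2 and vehicle replicate 2 both left out, the median was -0.16 for uptake and transport, against -0.25 with all libraries. For sensing and uptake together it was -0.23, against -0.086. It was -0.33 for fatty acid genes, -0.36 for the enzymes of both arms and -0.26 for all members, against -0.16, -0.20 and -0.19. When each library was left out, the median of the enzymes of both arms ranged from -0.33 to -0.13. That of the mevalonate arm ranged from -0.35 (without MRT199665 replicate 2) to -0.063 (without vehicle replicate 3). The log2 fold change of SCAP was 0.015 without both ends of the first component. Leaving out each library gave ranges of -0.18 to 0.043 for MVD, -0.23 to 0.23 for SREBF1, -0.16 to 0.040 for SREBF2, -0.25 to 0.16 for SCAP and -0.37 to 0.029 for SCD. Depth limits ACAT2, CYP51A1, FDPS, INSIG2 and HSD17B7, each under 5 CPM on average in both groups. Values of ACAT2, IDI1, TM7SF2 and HSD17B7 also changed sign under 1 to 3 alternatives each, IDI1 with limma-voom among them.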
